A study of Mus musculus with 6 samples.

Results

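The miR-17-92 polycistron is a group of miRNA hairpins cut from a single primary transcript of mouse chromosome 14. Its members were taken by name from a table of small RNA counts, as 9 of 1482 rows (1380 with miRBase names): mmu-miR-17-5p, mmu-miR-17-3p, mmu-miR-18a-5p, mmu-miR-18a-3p, mmu-miR-19a-3p, mmu-miR-20a-5p, mmu-miR-20a-3p, mmu-miR-19b-3p and mmu-miR-92a-3p, written below without the species prefix. The table covers 6 libraries of mouse spinal cord, 3 labelled SCI (spinal cord injury) and 3 labelled control. SCI-labelled mice had a laminectomy at T10 and then a moderate contusion from a 10 g weight dropped 20 mm. Control-labelled mice had the laminectomy alone, so the laminectomy and the daily antibiotics and bladder care after surgery were common to the design. The cord was collected on day 2 after surgery, as a piece of about 1 cm centred on T10, from 6 mice. Sources used here give neither strain nor age. p-values measure the spread between these libraries, except in the tests of arm choice and of clusters. Those treat rows of a library as separate observations.

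A miRNA gene is transcribed as a long precursor, and each hairpin in it yields a 5p and a 3p arm, of which usually a single arm is loaded into Argonaute and kept. The seed, bases 2 to 8, sets which messenger RNAs are bound, so miRNAs with the same seed share most targets. The miR-17-92 transcript is induced by Myc and E2F factors in dividing cells, is abundant in blood progenitors and lymphocytes, and lowers Bim and p21. In the nervous system it is best known from neural progenitors and axon growth.

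The direction of the labels was first examined with markers. These markers were chosen with earlier results of these data known, so they are no independent check of the labels. miR-21a-5p, known for its increase in wounded and inflamed tissue, was 8.34-fold lower in the SCI-labelled libraries (log2 -3.06, SE 0.24; edgeR quasi-likelihood adjusted p = 7.02e-05). In the data columns, the SCI-labelled samples carry the name Normal, while the other group carries the name Control. Neither name refers to an injury, so these names do not settle which group was injured. With respect to the labels, 3 marker lists ran the same way as miR-21a-5p. These were the leukocyte list (5 of 5 miRNAs lower), the erythroid list (4 of 4 lower) and the neuronal list (4 of 5 higher). The neuronal exception was miR-124-3p, with a log2 fold change of -0.52 (edgeR adjusted p = 0.339). No miRNA was called in the oligodendrocyte list of 4, the endothelial list of 2 or the skeletal muscle list of 3. Over all tested rows, 23.1% were called lower and 16.3% higher. The labels of the groups may have been exchanged before deposit, which these files cannot settle. The groups are therefore called by their labels throughout. Every direction below is that of the labels as deposited: with the labels exchanged, each value called lower in SCI-labelled libraries would be higher in injured cord, and none is given here as a decrease after injury. Total counts were 7100472 to 8889977 in SCI-labelled and 5568491 to 7360149 in control-labelled libraries. In SCI-labelled libraries the members' counts ran from 1 for miR-20a-3p to 3208 for miR-92a-3p. Neuronal and oligodendrocyte markers of the cord were present in every library: summed levels were 127308 to 139352 CPM in SCI-labelled and 65835 to 94276 CPM in control-labelled libraries for 5 neuronal miRNAs, and 10465 to 11328 CPM in SCI-labelled and 9138 to 12100 CPM in control-labelled libraries for 4 oligodendrocyte miRNAs. Control-labelled library 3 stood apart from the others of its group, with 37657 CPM of 3 skeletal muscle miRNAs, where SCI-labelled libraries had 9777 to 20390 CPM and control-labelled libraries 1 and 2 had 8271 and 11900 CPM; the 7 members called below were also called without it. CPM here is the count of a row relative to the library's total after TMM scaling, which allows for differences in composition.

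The 6 hairpins lie on the plus strand at chr14:115043671-115044506 (GRCm38), a stretch of 836 bases in the order Mir17, Mir18, Mir19a, Mir20a, Mir19b-1, Mir92-1. In GENCODE they fall inside the last of the 2 exons of the lincRNA gene Mir17hg, at chr14:115042879-115046727. The mature sequences of the members are shown because the main arms fall into 4 seed families and because some differ from each other, or from arms of other loci, by very few bases. They are from RefSeq on GRCm38.p6, written 5′ to 3′ with the seed in capitals.
miR-17-5p: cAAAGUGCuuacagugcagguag
miR-20a-5p: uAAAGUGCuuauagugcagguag
miR-18a-5p: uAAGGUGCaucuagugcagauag
miR-19a-3p: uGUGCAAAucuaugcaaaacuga
miR-19b-3p: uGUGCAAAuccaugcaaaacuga
miR-92a-3p: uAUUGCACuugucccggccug
miR-17-3p: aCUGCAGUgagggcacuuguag
miR-18a-3p: aCUGCCCUaagugcuccuucug
miR-20a-3p: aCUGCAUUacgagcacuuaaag
miR-17-5p and miR-20a-5p have the same seed and 2 mismatches over 23 bases, and miR-19a-3p and miR-19b-3p have the same seed and 1 mismatch. The last 3 sequences are the minor arms of their hairpins. The mature sequences of miR-19b-3p and miR-92a-3p are also made, letter for letter, from the X chromosome hairpins Mir19b-2 and Mir92-2. Their counts therefore sum both loci.

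The Mir17 hairpin is shown as an example of how both arms sit in a precursor, at chr14:115043671-115043754 on the plus strand, with the 5p and the 3p arm in capitals.
Mir17: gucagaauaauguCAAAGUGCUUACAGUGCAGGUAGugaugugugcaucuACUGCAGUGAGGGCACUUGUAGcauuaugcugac

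The polycistron as a whole was lower in the SCI-labelled libraries. Its 9 rows summed to 529, 553 and 549 CPM in SCI-labelled libraries 1, 2 and 3, against 2454, 2881 and 2317 CPM in control-labelled libraries 1, 2 and 3. The groups stood far apart and the SCI-labelled libraries were nearly level. As a share of all counts, the members took 0.0541%, 0.0503% and 0.0545% in the SCI-labelled libraries (Wilson 95% intervals 0.0525 to 0.0558%, 0.0487 to 0.0520% and 0.0530 to 0.0561%) and 0.232%, 0.286% and 0.267% in the control-labelled ones (0.229 to 0.236%, 0.281 to 0.290% and 0.264 to 0.271%). These intervals cover counting error only. The mean share was 0.0530% ± 0.00234 in the SCI-labelled and 0.262% ± 0.0271 in the control-labelled group (SD, n = 3 each; exact two-sided permutation p = 0.1, the smallest that 3 libraries against 3 can give).

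Of the 9 members, 8 passed the filter on low counts and were tested. Of these, 7 were lower with the SCI label by edgeR's quasi-likelihood test, adjusted over all 614 tested rows. Across the table, 23.1% of rows were called lower and 16.3% higher. In 8 of the 8 tested members every SCI-labelled library was below every control-labelled one, against 28.0% of all rows with this direction. The median log2 fold change was -2.67 over the tested members and -0.07 over all tested rows. 3 of the tested members, miR-17-3p, miR-18a-5p and miR-18a-3p, had at most 16 counts in any SCI-labelled library and passed the filter through the control-labelled group, so these counts describe the members that could be tested and are no measure of all 9. In bulk cord, fewer cells that make a miRNA and less of it per cell cannot be told apart.

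**Figure D1:**
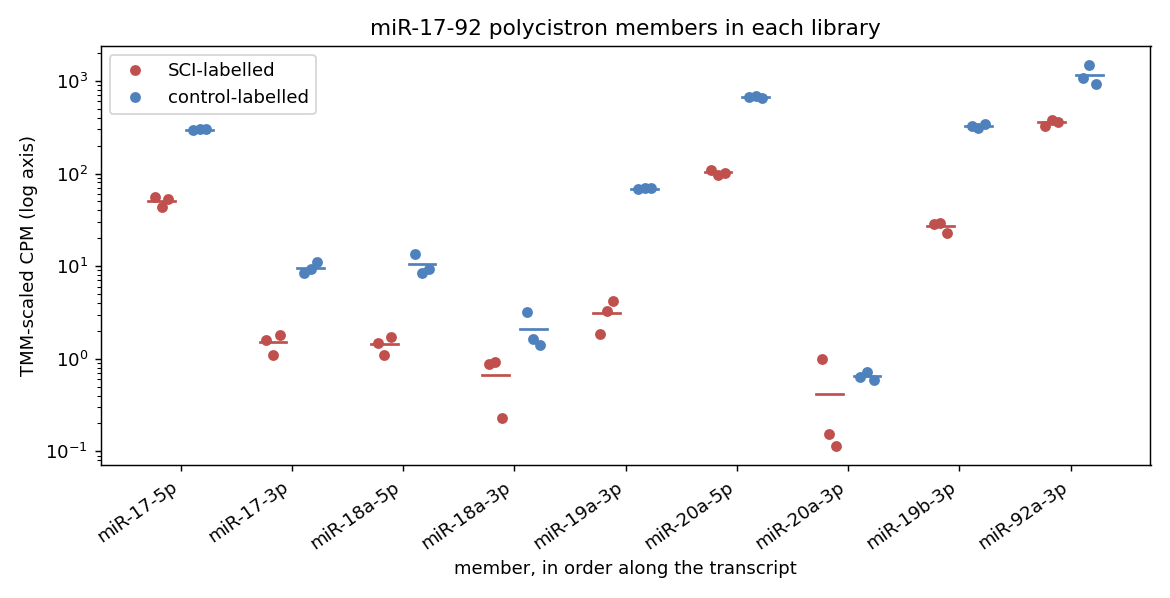
TMM-scaled CPM on a log axis of each member in each of 3 SCI-labelled (left, red) and 3 control-labelled libraries (right, blue), in the order of the transcript; points are libraries and bars are means. Only miR-20a-3p, at 0.113 to 0.991 CPM in SCI-labelled and 0.589 to 0.724 CPM in control-labelled libraries, has groups that overlap.

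The miR-17 seed members are arms that bind p21 and Bim messages. miR-17-5p, the founding member, was at 56.1, 43.6 and 52.8 CPM in SCI-labelled libraries 1, 2 and 3 and at 292, 299 and 303 CPM in control-labelled libraries 1, 2 and 3. The groups did not overlap, and the control-labelled libraries were within 1.04-fold of each other. miR-17-5p was 5.86-fold lower with the SCI label (log2 -2.55, SE 0.20; edgeR adjusted p = 7.14e-05).

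miR-20a-5p, its near twin in sequence, had 890, 627 and 904 counts in SCI-labelled libraries, which are 110.3, 97.2 and 102 CPM. It had 4197, 3840 and 5582 counts in control-labelled libraries, which are 672, 695 and 657 CPM. It was the most abundant member that comes from chromosome 14 alone, in either group. It was 6.53-fold lower with the SCI label (log2 -2.71, SE 0.19; edgeR adjusted p = 5.23e-05), and the fold changes of miR-17-5p and miR-20a-5p lay inside each other's 95% intervals, -3.01 to -2.09 and -3.13 to -2.28 on the log2 scale. Counts of miR-20a-5p per count of miR-17-5p were 1.96, 2.23 and 1.94 in SCI-labelled and 2.30, 2.32 and 2.17 in control-labelled libraries, which overlap.

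miR-18a-5p, whose seed differs from that of miR-17-5p by a single base, was a minor product of the transcript. It had 12, 7 and 15 counts in SCI-labelled and 85, 46 and 79 counts in control-labelled libraries, or 1.42 ± 0.312 and 10.4 ± 2.81 CPM (SD, n = 3 each). The counts did not overlap, and miR-18a-5p was 7.15-fold lower with the SCI label (log2 -2.84, SE 0.33; edgeR adjusted p = 0.000464). It passed the filter on low counts through the control-labelled group, so this difference is given as a description. Per count of miR-17-5p it stood at 0.0279 ± 0.00383 in SCI-labelled and 0.0350 ± 0.0101 in control-labelled libraries (SD, n = 3 each).

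The miR-19 members, which carry the main oncogenic activity of the transcript in Myc-driven mouse lymphoma, had the largest fold changes of the members by edgeR. With a pseudocount of 10 on the TPM, which shrinks the change of low rows, the log2 values by limma were -2.63 for miR-19a-3p, -3.27 for miR-19b-3p and -2.67 for miR-20a-5p, so the place of miR-19a-3p depends on that choice. miR-19a-3p had 15, 21 and 37 counts in SCI-labelled libraries against 420, 381 and 592 counts in control-labelled libraries. In CPM this was 1.86, 3.25 and 4.19 in SCI-labelled and 67.2, 69.0 and 69.7 in control-labelled libraries. The control-labelled libraries were within 1.04-fold of each other, while the SCI-labelled ones spread over 2.26-fold at counts this low. miR-19a-3p was 22.0-fold lower with the SCI label (log2 -4.46, SE 0.31, 95% interval -5.16 to -3.76; edgeR adjusted p = 5.23e-05), the 5th most negative log2 fold change among the 614 tested rows under the deposited labels.

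miR-19b-3p, which sums the chromosome 14 and the X locus, was at 28.4, 29.3 and 22.7 CPM in SCI-labelled and 325, 312 and 343 CPM in control-labelled libraries. This was 12.2-fold lower with the SCI label (log2 -3.61, SE 0.22, 95% interval -4.10 to -3.12; edgeR adjusted p = 4.82e-05). It ranked 13th in the same order. The 2 rows with the miR-19 seed, which are the only rows of the table with it among those matched to RefSeq, summed to 29.9 ± 2.87 CPM in the SCI-labelled and 395 ± 16.3 CPM in the control-labelled group (SD, n = 3 each).

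miR-92a-3p, the most abundant member and an inhibitor of vessel growth, was at 328, 377 and 363 CPM in SCI-labelled libraries. In control-labelled libraries it was at 1072, 1486 and 921 CPM. The SCI-labelled libraries lay close together, and control-labelled library 3 was the lowest of its group. miR-92a-3p was 3.26-fold lower with the SCI label (log2 -1.70, SE 0.23; edgeR adjusted p = 0.000789), the smallest difference among the members that passed.

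**Figure D2:**
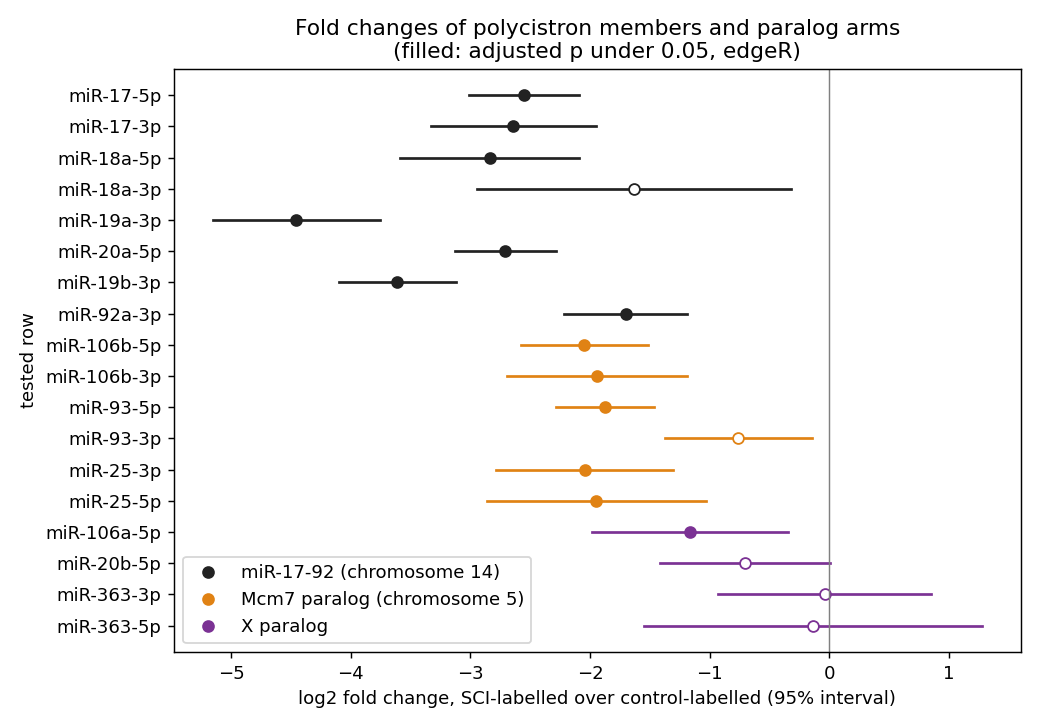
Log2 fold change, SCI-labelled over control-labelled, with its 95% interval, for the 8 tested members (black), 6 arms of the Mcm7 paralog (orange) and 4 arms of the X paralog (purple); filled points passed edgeR at an adjusted p under 0.05. miR-19a-3p at -4.46 and miR-19b-3p at -3.61 lie furthest left, and miR-363-3p of the X paralog lies at -0.04.

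The minor arms were near the limit of detection. miR-17-3p had 13, 7 and 16 counts in SCI-labelled and 52, 52 and 93 in control-labelled libraries, with no overlap, and was 6.24-fold lower with the SCI label (log2 -2.64, SE 0.30; edgeR adjusted p = 0.000441). This row too passed the filter through the control-labelled group, so its difference is given as a description. miR-18a-3p had 7, 6 and 2 counts in SCI-labelled and 20, 9 and 12 in control-labelled libraries. It did not pass, with a log2 fold change of -1.63 (SE 0.58, 95% interval -2.95 to -0.32; edgeR adjusted p = 0.0519), and it did pass in 9 of 19 other analyses, among them limma voom (adjusted p = 0.0171) and edgeR without control-labelled library 3 (0.0160). miR-20a-3p had 8, 1 and 1 counts in SCI-labelled and 4, 4 and 5 in control-labelled libraries, where SCI-labelled library 1 was the highest of all 6. It was removed by the filter. In the fit with no filter its log2 fold change was -0.55 (SE 0.74, 95% interval -1.998 to 0.89; edgeR adjusted p = 0.631), so a difference was not detectable at this depth.

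Arm choice was asked of the hairpins with both arms in the table. The 5p arm took 97.2% ± 0.447 of miR-17 counts in SCI-labelled and 96.9% ± 0.360 in control-labelled libraries (SD, n = 3 each). The 5p to 3p balance of miR-17 differed between the groups by 0.09 on the log2 scale and did not pass edgeR's diffSpliceDGE test (adjusted p = 0.885 over 179 hairpins). Of those hairpins, 30.2% were called. For miR-18a the 5p share was 68.4% ± 17.8 in SCI-labelled and 83.8% ± 2.93 in control-labelled libraries (SD, n = 3 each). SCI-labelled library 3, at 88.2%, was the highest of all 6, and the change of -1.21 did not pass (diffSpliceDGE adjusted p = 0.174). With 2 to 7 counts of the 3p arm per SCI-labelled library, the miR-18a balance has little precision. For miR-20a the 5p share was 99.1% to 99.9% in SCI-labelled and 99.9% in each control-labelled library, and the hairpin was not tested.

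The members did not move equally, although they are cut from the same primary transcript. Each row was set against the change in the summed counts of its genomic cluster, the row itself included. Hairpins within 10 kb of each other on the same strand were taken as a cluster, which gave 227 rows in 42 clusters. Rows with many counts weigh most in such a reference. Here miR-92a-3p, which also comes from X, took 65.4% of the members' counts in SCI-labelled and 45.0% in control-labelled libraries. miR-19a-3p was lower than its cluster by 2.23 on the log2 scale (diffSpliceDGE adjusted p = 1.18e-07). miR-19b-3p was lower than its cluster by 1.38 (adjusted p = 0.000457). Of the 8 tested members these 2 passed, both downward, against 9.69% of rows called lower and 12.3% called in either direction over all clusters. The differences of the others were -0.61 for miR-18a-5p, -0.48 for miR-20a-5p, -0.41 for miR-17-3p, -0.32 for miR-17-5p, 0.53 for miR-92a-3p and 0.60 for miR-18a-3p, with adjusted p-values of 0.282 to 0.613. These tests treat rows of a library as separate observations. With miR-19b-3p and miR-92a-3p left out of the cluster, because of their X copies, miR-19a-3p was lower than the remaining cluster by 1.73 (diffSpliceDGE adjusted p = 5.97e-05). That setting was added after the data were seen. miR-19b-3p was not set against a cluster without miR-92a-3p.

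The same was read from ratios within each library, which do not depend on scaling. Those of miR-19a-3p rest on 15, 21 and 37 counts in SCI-labelled libraries, so their spread there includes counting error. Counts of miR-19a-3p per count of miR-17-5p were 0.0331, 0.0747 and 0.0794 in SCI-labelled libraries and 0.230, 0.231 and 0.230 in control-labelled libraries. The control-labelled ratios were level, and every SCI-labelled ratio was lower. For miR-19b-3p the ratios to miR-17-5p were 0.506, 0.673 and 0.429 in SCI-labelled and 1.11, 1.04 and 1.13 in control-labelled libraries. miR-19a-3p per count of miR-19b-3p was 0.0655, 0.111 and 0.185 in SCI-labelled and 0.207, 0.221 and 0.203 in control-labelled libraries. SCI-labelled library 3 lay close to the control-labelled libraries in this ratio, and miR-19b-3p also sums the X locus. For miR-92a-3p the ratios to miR-17-5p ran the other way, at 5.84, 8.65 and 6.88 in SCI-labelled and 3.67, 4.97 and 3.04 in control-labelled libraries. Of 8 ratios computed, 6 had groups that do not overlap, each with an exact two-sided permutation p of 0.1, the smallest possible, and 0.133 after Benjamini-Hochberg adjustment over the 8.

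**Figure D3:**
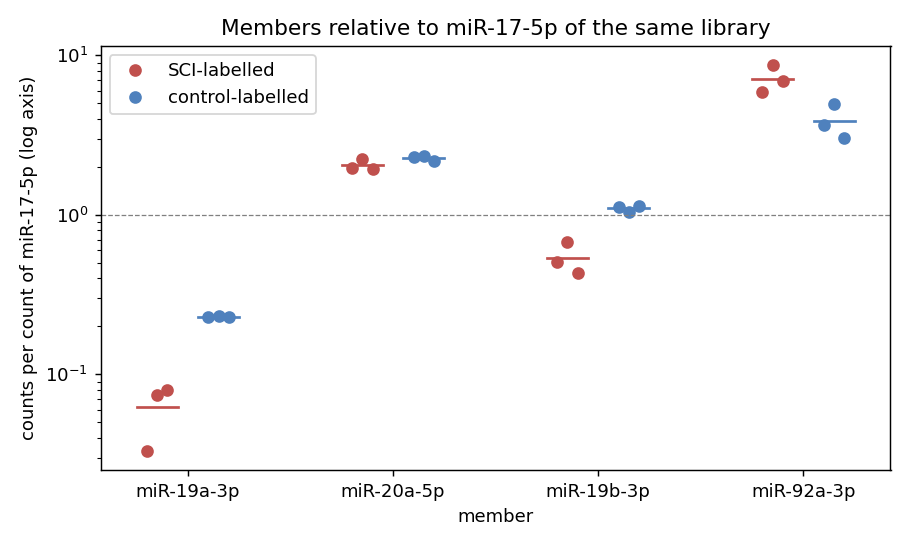
Counts of 4 members per count of miR-17-5p in the same library, on a log axis, for SCI-labelled (left, red) and control-labelled libraries (right, blue); points are libraries, bars are means and the dashed line marks equal counts. miR-19a-3p and miR-19b-3p sit lower and miR-92a-3p higher in the SCI-labelled libraries, while the miR-20a-5p ratios overlap at 1.94 to 2.23 in SCI-labelled and 2.17 to 2.32 in control-labelled libraries.

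The make-up of the polycistron's counts differed accordingly. miR-92a-3p took 65.4% ± 3.16 of the members' summed counts in the SCI-labelled and 45.0% ± 6.02 in the control-labelled group (SD, n = 3 each). miR-20a-5p took 19.0% ± 1.66 and 26.6% ± 2.22 in the SCI-labelled and the control-labelled group, miR-17-5p 9.36% ± 1.38 and 11.8% ± 1.36, miR-19b-3p 4.93% ± 0.694 and 13.0% ± 2.01, and miR-19a-3p 0.567% ± 0.207 and 2.71% ± 0.308 (SD, n = 3 each). All but miR-17-5p of these 5 had no overlap between groups (exact permutation p = 0.1 each, the smallest possible). Shares of the same sum depend on each other: a larger share of miR-92a-3p lowers the rest, so these are not separate results.

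**Figure D4:**
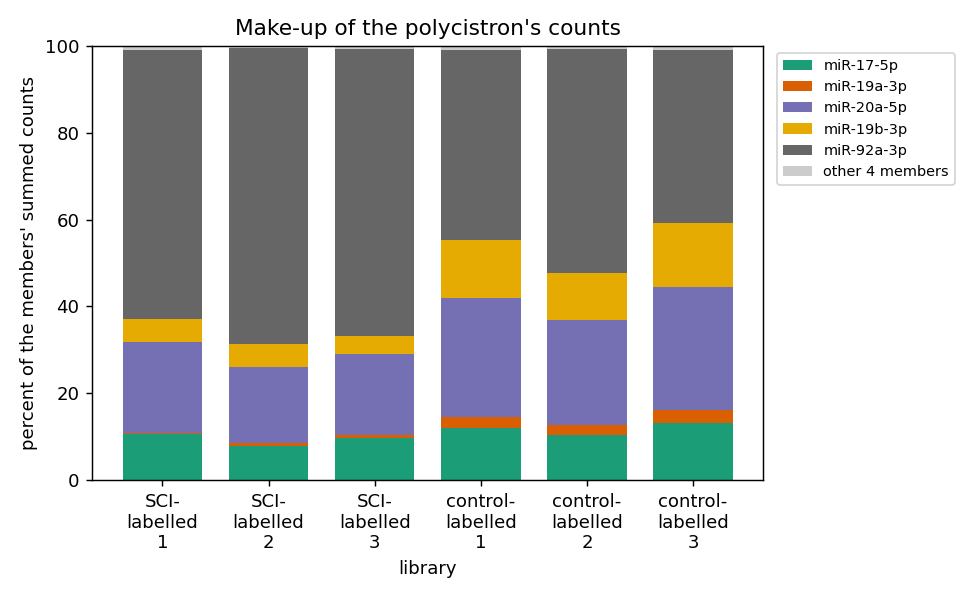
Percent of the members' summed counts taken by each member in each library, SCI-labelled libraries on the left and control-labelled on the right, stacked to 100%. miR-92a-3p (dark grey) takes 61.9 to 68.1% in SCI-labelled and 39.8 to 51.6% in control-labelled libraries.

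The size of the difference did not follow the place of the hairpin in the transcript. From the 5′ end, the main arms had log2 fold changes of -2.55 for miR-17-5p, -2.84 for miR-18a-5p, -4.46 for miR-19a-3p, -2.71 for miR-20a-5p, -3.61 for miR-19b-3p and -1.70 for miR-92a-3p. The most negative values belonged to the pair with the miR-19 seed, which are separated by Mir20a. Base composition also differed among the main arms, though not in strict order. From the most negative log2 fold change, GC content was 34.8% in miR-19a-3p, 39.1% in miR-19b-3p and 43.5% in miR-18a-5p. It was then 39.1% in miR-20a-5p, 47.8% in miR-17-5p and 57.1% in miR-92a-3p. Over the 521 tested rows matched to RefSeq, GC content and log2 fold change had a Spearman rho of 0.05, as a description across rows that are not independent. In 4 bins of rising GC content, 28.5%, 22.7%, 20.7% and 18.9% of these rows were called lower. The median log2 fold changes of the bins were -0.12, 0.07, -0.07 and -0.04. With a smooth curve on GC content removed, a setting added after the data were seen, the log2 fold changes were -4.00 for miR-19a-3p, -3.24 for miR-19b-3p, -2.34 for miR-20a-5p, -2.48 for miR-17-5p and -1.55 for miR-92a-3p. miR-17-5p and miR-20a-5p changed places in the order of values, and miR-19a-3p and miR-19b-3p were still the most negative of the 8 tested members. The part of base composition in the differences was not tested.

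Mammals have 2 paralogs of the transcript, and their arms are shown because they share seeds with the members. The Mcm7 paralog holds Mir106b, Mir93 and Mir25 in the Mcm7 gene on chromosome 5, and Mcm7 is a helicase subunit of DNA replication. The X paralog holds Mir106a, Mir18b, Mir20b, Mir19b-2, Mir92-2 and Mir363. Seeds are in capitals as above.
miR-93-5p: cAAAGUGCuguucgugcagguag
miR-106b-5p: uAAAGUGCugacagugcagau
miR-106a-5p: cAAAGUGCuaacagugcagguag
miR-20b-5p: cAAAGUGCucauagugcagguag
miR-25-3p: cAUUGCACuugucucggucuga
miR-363-3p: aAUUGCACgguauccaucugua
miR-106a-5p has 1 mismatch to miR-17-5p and miR-20b-5p has 2 mismatches to miR-20a-5p. The sources used here do not say how the authors assigned reads to such close neighbours.

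Of 16 listed paralog arms, 14 were in the table and 10 were tested, of which 6 were lower with the SCI label and 4 did not pass, with a median log2 fold change of -1.52. All 6 Mcm7 arms had groups that do not overlap and 5 passed. Over all tested rows, 28.0% did not overlap in this direction and 23.1% were called lower. Of the Mcm7 arms that passed, miR-25-5p had 11, 9 and 14 counts in SCI-labelled and 26, 49 and 35 in control-labelled libraries. Like miR-17-3p, it passed the filter on low counts through the control-labelled group, so its call is a description. miR-25-3p was at 809 ± 95.5 CPM in SCI-labelled and 3340 ± 1374 CPM in control-labelled libraries (SD, n = 3 each). The log2 fold changes were -2.05 to -1.87 for the 5 that passed and -0.76 for miR-93-3p (edgeR adjusted p = 0.0519). Among the Mcm7 hairpins, only miR-93 had arms that moved unequally, with 5p lower than 3p by 1.11 (diffSpliceDGE adjusted p = 0.00369). This call was lost with no filter on low counts (0.0506), and 30.2% of the 179 tested hairpins were called. The 3p arm had 22, 19 and 25 counts in SCI-labelled and 26, 28 and 44 in control-labelled libraries.

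The arms that come from the X paralog alone had smaller differences. miR-363-3p, with the miR-92a seed, had 71, 66 and 76 counts in SCI-labelled and 71, 72 and 36 counts in control-labelled libraries, and its log2 fold change of -0.04 (95% interval -0.93 to 0.85) did not pass and took either sign across analyses. miR-363-5p (-0.14, 95% interval -1.55 to 1.28) and miR-20b-5p (-0.70, 95% interval -1.42 to 0.01) did not pass either. miR-106a-5p, with 14, 10 and 14 counts in SCI-labelled and 20, 29 and 23 in control-labelled libraries, was 2.24-fold lower (edgeR adjusted p = 0.0329), a call that failed in 9 of 19 other analyses, at adjusted p-values up to 0.119. Counts of miR-106a-5p per count of miR-17-5p were 0.0309, 0.0356 and 0.0300 in SCI-labelled libraries and 0.0110, 0.0176 and 0.00893 in control-labelled ones. Counts of miR-20b-5p per count of miR-20a-5p were 0.0461, 0.0367 and 0.0321 in SCI-labelled and 0.00882, 0.0122 and 0.00788 in control-labelled libraries, so the X arm was relatively higher with the SCI label in both pairs. Rows of miR-18b-5p and miR-18b-3p held 0 counts in every library.

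The chromosome 14 transcript and the X paralog were compared through arms that only a single locus makes. In the X set, miR-106a-5p and miR-20b-5p differ by few bases from the more abundant miR-17-5p and miR-20a-5p. How reads were assigned between them is not known, which limits the comparison. The 7 members made only on chromosome 14 summed to 161 ± 13.1 CPM in SCI-labelled and 1064 ± 16.6 CPM in control-labelled libraries (SD, n = 3 each). The 4 tested arms of X alone summed to 16.7 ± 0.780 and 22.0 ± 8.95 CPM in the SCI-labelled and the control-labelled group (SD, n = 3 each). The log2 ratio of these sums was 3.08 to 3.36 in SCI-labelled and 5.15 to 6.38 in control-labelled libraries, a difference of -2.42 with no overlap (exact two-sided permutation p = 0.1, the smallest possible). Against the 6 Mcm7 arms the log2 ratio was -2.88 ± 0.192 in SCI-labelled and -2.10 ± 0.522 in control-labelled libraries (SD, n = 3 each), a difference of -0.78, again with no overlap (p = 0.1, exact permutation). The minor arm miR-92a-1-5p, which marks the chromosome 14 copy of miR-92a, had 0, 1 and 6 counts in SCI-labelled and 14, 8 and 15 in control-labelled libraries, with a log2 fold change of -2.56 (SE 0.73; edgeR adjusted p = 0.0246). It passed the filter on low counts only through the control-labelled group, so it is given as a description. The edgeR call was lost without SCI-labelled library 1 (0.0621) or 2 (0.0994) or control-labelled library 1 (0.0604). miR-19b-1-5p had 0 to 1 counts in SCI-labelled and 1 to 2 in control-labelled libraries.

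Read by seed, the polycistron held a smaller share of the miR-17 family in the SCI-labelled libraries. All 6 rows with that seed summed to 404 ± 35.6 CPM in SCI-labelled and 1900.5 ± 25.0 CPM in control-labelled libraries (SD, n = 3 each), 4.70-fold lower. miR-17-5p and miR-20a-5p made up 38.2% ± 0.310 of the sum in the SCI-labelled and 51.2% ± 1.505 in the control-labelled group (SD, n = 3 each), with no overlap (exact permutation p = 0.1, the smallest possible, and 0.2 adjusted over 2 seeds). In the miR-92a seed family of 5 rows, led by miR-25-3p, miR-92a-3p took 22.4% ± 1.04 in the SCI-labelled and 24.5% ± 4.57 in the control-labelled group (SD, n = 3 each), which overlap (p = 0.6, exact permutation).

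**Figure D5:**
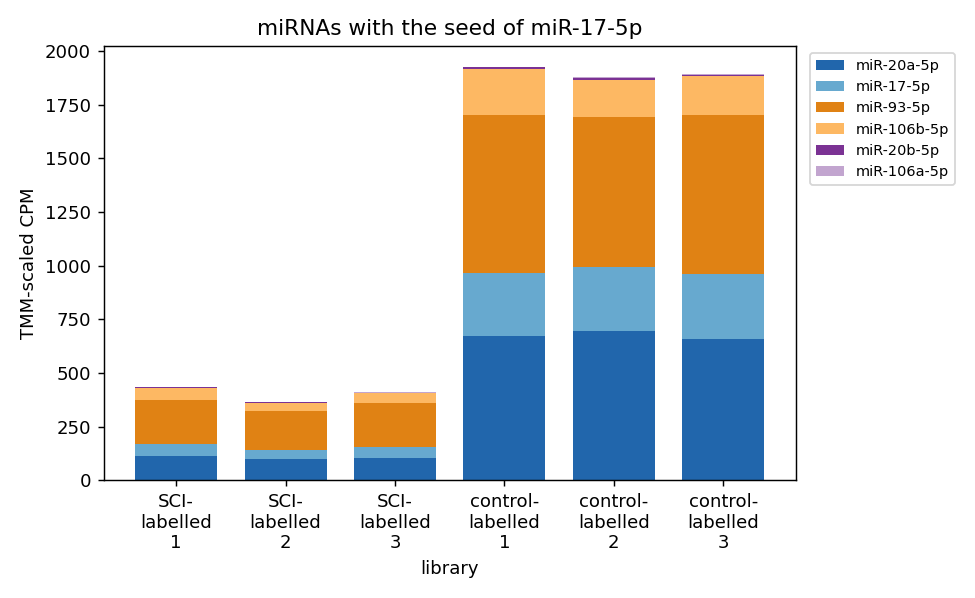
Stacked TMM-scaled CPM of the 6 miRNAs with the miR-17 seed in each library, SCI-labelled on the left and control-labelled on the right; blue is the chromosome 14 transcript, orange the Mcm7 paralog and purple the X paralog. The sums are 366 to 436 CPM in SCI-labelled and 1880 to 1928 CPM in control-labelled libraries.

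Markers of blood cells and fibroblasts moved with the members. Of the erythroid list, 4 of 4 miRNAs were lower in the SCI-labelled libraries, with summed levels of 2502, 2481 and 5230 CPM in SCI-labelled libraries 1, 2 and 3 and 32712, 26278 and 9424 CPM in control-labelled libraries 1, 2 and 3. Of the leukocyte list, 5 of 5 were lower, at 328, 344 and 450 CPM in SCI-labelled and 2500, 2983 and 1778 CPM in control-labelled libraries. The call of miR-150-5p in that list was lost in 8 of 19 other analyses, without each SCI-labelled library and without control-labelled library 1 among them (edgeR adjusted p = 0.0650 to 0.111 in these 4), and that of miR-451a in the erythroid list was lost with no filter (0.0906). Of the fibroblast list, 3 of 3 were lower, at 555 to 1055 CPM in SCI-labelled and 1830 to 3298 CPM in control-labelled libraries. Over all tested rows, 23.1% were called lower. No marker of these lists was at 0 in all libraries. Within the control-labelled group the erythroid sum varied 3.47-fold and the leukocyte sum 1.68-fold, both lowest in library 3. The fibroblast sum varied 1.80-fold. miR-17-5p and miR-19a-3p varied 1.04-fold, miR-20a-5p 1.06-fold and miR-19b-3p 1.10-fold. Rows within the blood lists were not alike in this. In control-labelled libraries 1, 2 and 3, miR-451a was at 26640, 18552 and 6409 CPM and miR-142a-5p at 1449, 2071 and 945 CPM. In the same libraries miR-144-3p was at 243, 256 and 228 CPM and miR-150-5p at 282, 286 and 277 CPM. miR-92a-3p varied 1.61-fold and was lowest in library 3, as was miR-25-3p. With erythroid and leukocyte rows left out of the fit, log2 fold changes were -2.57 for miR-17-5p, -4.47 for miR-19a-3p and -1.72 for miR-92a-3p, which does not measure how much of each member those cells carry. Their part in the difference was not tested.

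Across the 6 libraries the rows most like the members were sought among 261 named miRNAs of at least 50 CPM, by Pearson's r with the mean centred log2 CPM of the 8 tested members. They were miR-16-5p (r = 0.999), miR-150-5p (0.996), miR-21a-5p (0.993), miR-30a-5p (0.992) and miR-221-3p (0.991). These values describe 6 points in separate groups and carry no test, and r does not read the size of a change: miR-16-5p, a cell cycle miRNA, had a log2 fold change of -2.31 and miR-150-5p of mature lymphocytes -0.63. Each main arm of the polycistron had an r of 0.964 to 0.999 with the mean of the other members, and miR-18a-3p 0.781.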

How the data were processed

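Small RNA libraries were made from 3 µg of total RNA per cord with the NEBNext small RNA kit, per the labels' protocols. The authors deposited whole-number read counts per mature miRNA, with TPM beside them. Each deposited TPM value matched the count scaled by its column total to within 2.74e-05 and so holds no length term. Per the submitters' processing notes, reads were handled with Bowtie on mm10; no version is stated, nor how reads matching several miRNAs were assigned. Adapter ligation bias affects levels compared between miRNAs.

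The fit used edgeR 4.0.16 in R 4.3.3, with filterByExpr at a minimum count of 10, TMM scaling, the robust quasi-likelihood test on group alone and Benjamini-Hochberg adjustment over 614 rows at 0.05. A standard error is the log2 fold change divided by the root of its F statistic. Arm usage and cluster differences used diffSpliceDGE; a row with several loci was given to the cluster with the larger uniquely placed count. Arm ratios carry a pseudocount of 0.5. Sequences and loci came from RefSeq (GRCm38.p6) and GENCODE M21. Alternatives used DESeq2 1.42.0, limma 3.58.1, other scalings and filters, pseudocounts of 0.1, 1 and 10 on log2 TPM, a replicate block and each library left out. Within each group, every pair of libraries differed by more than sampling noise. Steps were tested on simulated data. The members, marker lists and tests were chosen with earlier results of these data known. All members, the listed paralogs and minor arms, and the 5 most similar rows are named by rule; ratios to miR-17-5p, the locus sums and the seed shares were chosen after values were seen.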

Additional observations from a re-analysis of the deposited data

How the results depend on the processing

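The call of 7 members (miR-17-5p, miR-17-3p, miR-18a-5p, miR-19a-3p, miR-20a-5p, miR-19b-3p and miR-92a-3p) and their direction held in all 20 other tests run on each, which gave 7 or 8 members called; the highest adjusted p was 0.00910, for miR-92a-3p. Of the 7, miR-17-3p and miR-18a-5p had entered the main fit through the control-labelled group, so their calls are a description. The size of low rows moved with the pseudocount: at 10, log2 values were -2.63 for miR-19a-3p, -0.79 for miR-17-3p and -0.85 for miR-18a-5p. The cluster differences of miR-19a-3p (-2.52 to -1.73 in 9 settings) and miR-19b-3p (-1.51 to -1.27 in 8) held too, with diffSpliceDGE adjusted p-values up to 0.0425. None of the 8 for miR-19b-3p left miR-92a-3p out of the cluster. The table-wide count of 242 calls rested partly on single libraries: it ran from 141 to 331 when each was left out, with 87 to 179 lower and 54 to 152 higher; the lowest counts of 87 lower and 54 higher were without SCI-labelled library 3, and 63 were higher without SCI-labelled library 1 and 152 without control-labelled library 3. The median log2 fold change of all rows was -0.07 by TMM, 0.04 by the upper quartile and -0.15 by the library total. The arm balance of miR-17 ran from -0.0190 to 0.22 without each library and was below 0 without control-labelled library 3; that of miR-18a ran from -1.80 to -0.79. The cluster difference of miR-92a-1-5p ran from -2.16 without SCI-labelled library 3 to 0.22 without SCI-labelled library 1. miR-363-3p took the other sign with the upper quartile (0.0620), no filter (0.0313), limma on log2 TPM at pseudocounts of 1 (0.00811, with or without the filter) and 0.1 (0.0212), the replicate block (0.0791), and in 4 of the fits without a library, which ran from -0.37 to 0.25. miR-363-5p did so at a pseudocount of 0.1 (0.0806), with the replicate block (0.0160), and in 3 of the fits without a library, which ran from -0.63 to 0.41. The causes were not tested. Replicate numbers did not pair the libraries: deviations of same-numbered libraries correlated at -0.27, 0.19 and -0.18, and with the number as a block 190 rows and 7 members were called. Depth limits miR-18a-3p and miR-20a-3p.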
